A study of Homo sapiens with 24 samples.

Results

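The 10 heat shock protein genes HSPA1A, HSPA1B, HSPA8, HSP90AA1, HSP90AB1, DNAJB1, HSPH1, HSPE1, HSPD1 and HSPB1 were followed through actinomycin D treatment of HepG2 cells, an established human liver cancer cell line. They were chosen by name, as the main cytosolic and mitochondrial heat shock chaperones, out of 58676 gene rows. Cells received a control siRNA (siControl) or an siRNA against IGF2BP1 (siIGF2BP1), IGF2BP2 (siIGF2BP2) or IGF2BP3 (siIGF2BP3), which encode related RNA-binding proteins. After 6 h the cells were reseeded, and 48 h later they were placed in 5 µg/ml actinomycin D, an inhibitor of transcription, for 0, 3 or 6 h. The 4 conditions at 3 time points make 12 groups of 2 polyadenylated RNA libraries each, 24 in all. The labels name no heat treatment in any group, and all cells were of this 1 line. The replicates are separate samples per the labels, and where they share a culture the p-values cover technical spread only.

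Heat shock proteins are chaperones that bind unfolded or immature proteins and help them fold. HSP70 proteins (HSPA1A, HSPA1B, HSPA8) hold short exposed stretches of a client, J-domain proteins such as DNAJB1 bring clients to HSP70 and start its ATP cycle, and HSPH1 (HSP110) exchanges the nucleotide so that the client is let go. HSP90 proteins (HSP90AA1, HSP90AB1) mature kinases and steroid receptors, HSPD1 (HSP60) and its lid HSPE1 (HSP10) form the folding chamber of mitochondria, and HSPB1 (HSP27) is a small chaperone that keeps unfolded proteins from clumping. HSPA1A, HSPA1B, DNAJB1, HSPH1, HSPB1 and HSP90AA1 are known as the heat-inducible members, and HSPA8 and HSP90AB1 as the constitutive partners of HSPA1A and HSP90AA1.

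Heat shock factors bind repeats of the 5-base unit NGAAN in alternating orientation, known as the heat shock element. Words of 3 units, with TTC, GAA and TTC or GAA, TTC and GAA in a row and 2 free bases between neighbours, were searched on both strands and occurred in 0.49% of 35116 RefSeq promoter windows (GRCh38.p14, 250 bases before to 50 after the start). Among the 10 genes, HSPA8, HSP90AA1, HSP90AB1 and HSPD1 held such a word in at least 1 promoter. They are shown because the constitutive HSPA8 and HSP90AB1 carry it too, with the word in capitals and the gene's own strand read 5′ to 3′.
HSPA8, chr11:123062170-123062200, minus strand: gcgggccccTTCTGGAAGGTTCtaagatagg
HSP90AA1, chr14:102087111-102087141, minus strand: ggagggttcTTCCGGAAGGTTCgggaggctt
HSP90AB1, chr6:44247822-44247852, plus strand: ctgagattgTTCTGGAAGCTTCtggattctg
HSPD1, chr2:197500064-197500090, minus strand: gcattTTCTGGAAAGTTCtggaaccga
In HSPD1 a second word, of the other kind, overlaps the one shown. HSPA8 and HSP90AB1 also held a second word, not shown, which began 230 and 165 bases before the start. The 2-unit word GAANNTTC, which overlaps the longer words and occurred in 6.8% of promoters, was also present for HSPA1A, HSPA1B, DNAJB1 and HSPB1. No match to either word was seen in the windows of HSPH1 and HSPE1. The HSPE1 window (chr2:197500129-197500428) begins close to the annotated start of that gene, so most sequence before that start was not searched. The word shown for HSPD1 lies outside this window, on the side before the HSPE1 start. Whether it serves HSPE1 was not tested. On chromosome 2, HSPE1 (plus strand, 197500140 to 197503449) lies within the annotated span of HSPD1 (minus strand, 197486584 to 197516737).

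Gene reads per library ranged from 31843248 to 74252042 and ERCC spike-in reads from 50889 to 119088. The siRNA target at 0 h was at 20.9% of siControl for IGF2BP1, 26.1% for IGF2BP2 and 35.4% for IGF2BP3. Hepatocyte markers were read as a check on HepG2 identity. ALB ranged from 10700 to 17400 CPM (read counts scaled to a common library size) over the 24 libraries and TTR from 38.6 to 77.6 CPM. Of the markers of other cell types, PTPRC, CD3E and COL1A2 stayed at or under 0.0248 CPM. COL1A1 reached 0.343 CPM and PECAM1 1.37 CPM, and the smooth muscle marker ACTA2 ranged from 29.1 to 42.6 CPM.

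The classical stress-inducible HSP70 mRNAs were almost absent from the counts. HSPA1A (chr6:31815543-31817946, plus strand) had 11 and 13 reads in the siControl libraries at 0 h, 3 and 3 at 3 h, and 0 and 0 at 6 h. At 0 h it had 3 and 1 reads in siIGF2BP1, 7 and 4 in siIGF2BP2, and 9 and 4 in siIGF2BP3. HSPA1B (chr6:31827738-31830254, plus strand) had 1 read in single libraries of siIGF2BP2 and siIGF2BP3 at 0 h, 2 reads in 1 siIGF2BP3 library at 3 h, and 0 in the other 21 libraries. HSPA1A had most reads in siControl and fewest in siIGF2BP1 at 0 h, but at these counts no fold change or half-life was calculated for either gene. They also did not pass the filter for testing (1 CPM or more in 2 or more libraries), which the other 8 genes and 13136 genes in all passed.

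The sequence of the HSPA1A and HSPA1B pair bears on these counts. Of the 2301 stretches of 100 bases in the HSPA1A transcript, 1666 also occur in HSPA1B, and the longest shared stretch is 1715 bases. With the alternate chromosome 6 haplotypes of hg38 included, 0% of the 100-base stretches of either transcript were found at a single place, against 100% for DNAJB1 and HSPH1, 98.29% for HSP90AB1, 96.93% for HSP90AA1, 96.26% for HSPA8, 93.95% for HSPB1, 88.43% for HSPE1 and 87.65% for HSPD1. Whether the genome index held these haplotypes, and how reads with several placements were counted, was not given in the sources used here. How far this sets the HSPA1A and HSPA1B counts was not tested.

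The levels of the tested members fell into an upper and a lower tier. The upper held the inducible HSP90AA1 beside the constitutive HSPA8 and HSP90AB1, and the mitochondrial pair HSPD1 and HSPE1 was split. HSP90AB1 was the highest of the 10 in siControl at 0 h, at 1659 ± 1.63 CPM per kilobase of annotated exon (SD, n = 2), followed by HSP90AA1 at 631.4 ± 8.33, HSPA8 at 568.5 ± 2.31 and HSPD1 at 292.6 ± 4.58. A lower tier held HSPH1 at 20.69 ± 0.254, HSPE1 at 17.54 ± 0.416, HSPB1 at 16.82 ± 0.321 and DNAJB1 at 10.9 ± 0.075 on the same scale. No neighbours in that order overlapped between libraries. In bulk RNA such as this, fewer cells with an mRNA and less of it per cell cannot be told apart.

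The order within each tier depended on the length used. With the canonical transcript in place of all annotated exons, HSP90AB1 was at 1934 ± 1.84, HSPA8 at 1218 ± 4.95, HSP90AA1 at 996.9 ± 13.1 and HSPD1 at 994.3 ± 15.6, and the last 2 differed by less than their spread. HSPE1 was then at 57.4 ± 1.36, DNAJB1 at 39.82 ± 0.274, HSPB1 at 35.12 ± 0.671 and HSPH1 at 33.11 ± 0.406. HSPE1 stood far below HSPD1, its partner in the mitochondrial chamber, on both scales. Beside this, 34.47% of the HSPE1 transcript is shared with exons of the read-through gene HSPE1-MOB4, which had 0 reads in siControl at 0 h. Reads in shared exons may have been counted for neither gene, as 4.67% to 5.627% of each library total was set aside as ambiguous. The 0 therefore does not measure the overlap, and the part of this overlap in the HSPE1 level was not tested.

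**Figure D1:**
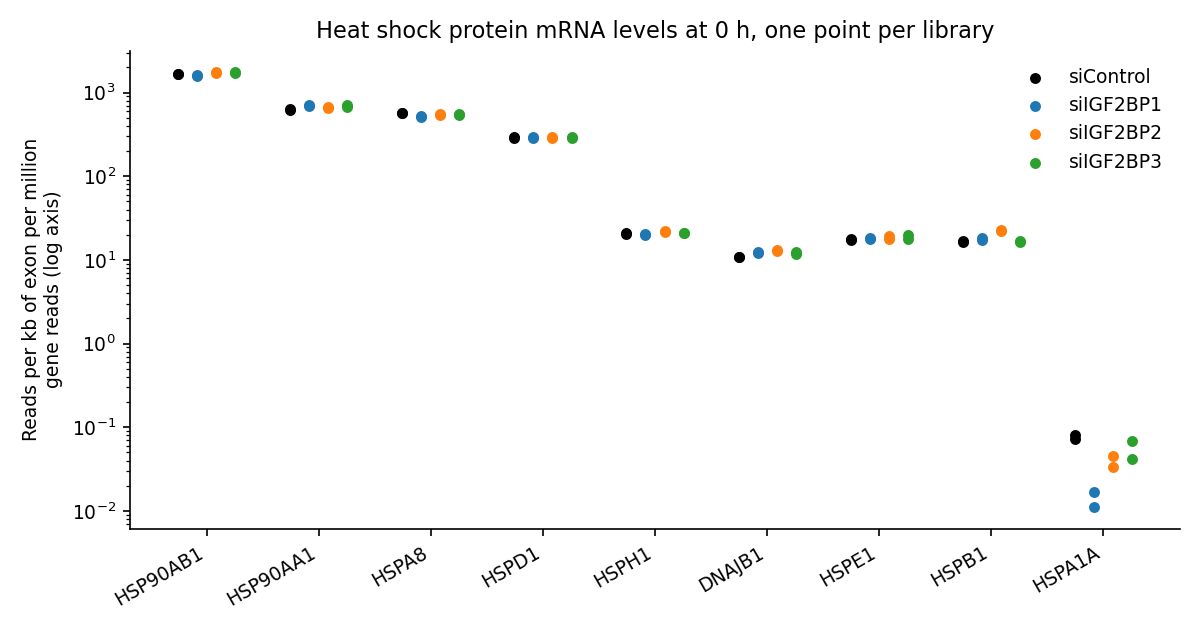
Level of 9 heat shock protein mRNAs at 0 h in CPM per kilobase of annotated exon (log axis), 1 point per library and 2 libraries per condition, coloured by siRNA. HSP90AB1, HSP90AA1, HSPA8 and HSPD1 lie at 285 or above, HSPH1, HSPE1, HSPB1 and DNAJB1 between 10.85 and 23.01, and HSPA1A at 0.0798 or below. HSPB1 is raised in siIGF2BP2.

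The loss of each mRNA in actinomycin D was first compared in siControl, with levels scaled to the ERCC reads. DNAJB1 was among the fastest-decaying mRNAs of the cell. It stood at 7.71% and 6.88% of its mean 0 h level in the 2 libraries at 3 h and at 2.15% and 1.87% at 6 h. The libraries of the 3 time points did not overlap, and the fitted slope was -5.80 log2 units over 6 h (SE 0.44, adjusted p = 6.42e-11, edgeR quasi-likelihood test), with 0.47% of all tested genes lower. HSPA8, the constitutive HSP70, followed with 63.2% and 61.9% at 3 h and 20.4% and 18.6% at 6 h, a slope of -2.36 (SE 0.25, adjusted p = 1.29e-08). HSPH1, the HSP70 exchange factor, was at 75.0% and 75.1% at 3 h and at 59.8% and 57.3% at 6 h, with a slope of -0.77 (SE 0.10, adjusted p = 5.14e-07).

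The remaining members lost little or nothing measurable. HSPE1 had a slope of -0.42 (SE 0.14, adjusted p = 0.00729) and HSP90AB1 one of -0.21 (SE 0.08, adjusted p = 0.0176). HSPB1 at -0.19 (adjusted p = 0.101), HSPD1 at -0.17 (adjusted p = 0.0668) and HSP90AA1 at -0.09 (adjusted p = 0.293) were not called. Thus 5 of the 8 tested members fell over 6 h in siControl, where 80.3% of all genes did, and the members' median slope was -0.32 against -0.88 for all genes. The inducible DNAJB1 and the inducible HSP90AA1 lay at opposite ends, and the constitutive HSPA8 fell while HSP90AB1 kept 90.0% and 83.1% of its level at 6 h. Without replicate 1 of siControl at 0 h the HSP90AB1 and HSPE1 calls were lost (adjusted p = 0.15 and 0.0696), which left 3 members, while without replicate 2 of that group all 8 were called.

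A scaling to the library itself turned the small slopes around. The median slope of all genes in siControl was -0.88 with the ERCC sum and -0.01 with trimmed mean of M-values (TMM) scaling, and under TMM HSP90AA1, HSP90AB1, HSPD1, HSPB1, HSPE1 and HSPH1 had positive slopes. A scaling shifts all genes of a library by 1 factor, so slopes relative to the median of all genes barely depend on it by construction. Under the ERCC sum, the ERCC median ratio, TMM and library size, 6 of 8 members lay above that median in each condition. By definition as many of all genes lie above it as below. HSPH1 was barely above it, with the ERCC sum by 0.1118 in siControl and 0.0033 in siIGF2BP1, where its slopes had an SE of 0.10. DNAJB1 and HSPA8 lay below the median. The agreement between the scalings is therefore no test of these positions.

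**Figure D2:**
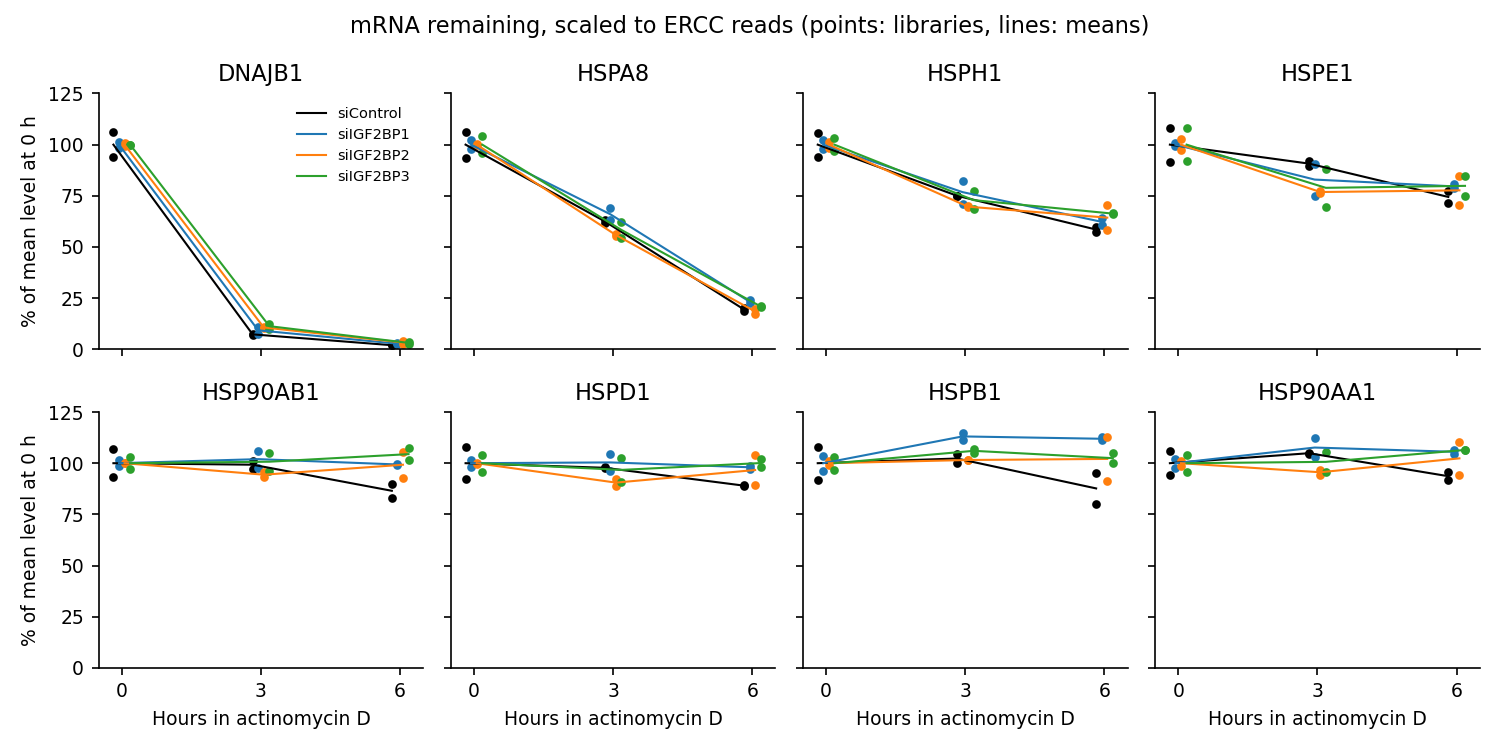
Percent of the mean 0 h level (ERCC-scaled, linear axis) against hours in actinomycin D for the 8 tested members, with points for the 2 libraries per group and lines through group means, coloured by siRNA. DNAJB1 is near 7.30% in siControl by 3 h, HSPA8 drops more between 3 and 6 h than before, and the HSP90 genes, HSPD1 and HSPB1 stay near their starting level.

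DNAJB1 and HSPA8 lost their mRNA on opposite schedules. In siControl DNAJB1 changed by -3.78 log2 units from 0 to 3 h (SE 0.11, adjusted p = 2.2e-250) and by -1.86 from 3 to 6 h (SE 0.13, adjusted p = 4.29e-42), with ERCC scaling and 12 group means. HSPA8 changed by -0.68 in the first interval (SE 0.08, adjusted p = 9.2e-17) and by -1.68 in the second (SE 0.08, adjusted p = 7.92e-92), the latter lower than in all but 1.82% of genes. HSPH1 changed about evenly, by -0.41 and -0.36 (adjusted p = 2.52e-06 and 6.1e-05). From 0 to 3 h these 3 members fell, where 61.3% of all genes did. From 3 to 6 h HSPE1 (-0.29), HSPB1 (-0.22) and HSP90AB1 (-0.20) fell as well, which makes 6 of 8 where 64.9% of genes fell. No member rose from 3 to 6 h, as 0.152% of all genes did.

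The difference between the intervals was then tested directly. This contrast was added after the data were seen, so the 3 knockdown conditions are not an independent test of it. For HSPA8 the 3 to 6 h change minus the 0 to 3 h change was -1.01 with siControl (SE 0.13, adjusted p = 5.83e-12), -0.90 under siIGF2BP1 (SE 0.14, adjusted p = 1.21e-09), -0.75 under siIGF2BP2 (SE 0.14, adjusted p = 5.76e-07) and -0.70 under siIGF2BP3 (SE 0.14, adjusted p = 6.46e-06). The later loss of HSPA8 was therefore the larger in all 4 conditions, and 0.72%, 0.91%, 0.68% and 2.12% of genes had a lower value. For DNAJB1 the same difference was positive, at 1.92, 1.68, 1.55 and 1.34 (adjusted p from 2.22e-17 to 2.17e-09). HSPH1 was called in siIGF2BP2 alone (0.41, adjusted p = 0.034), which makes 3 of 8 members there and 2 of 8 in each other condition. Over all genes 12.6%, 11.5%, 18% and 12.1% were called with siControl, siIGF2BP1, siIGF2BP2 and siIGF2BP3. With ERCC scaling most of them went in the direction of DNAJB1: in siControl 1435 had a positive and 216 a negative difference. That majority depended on the scaling. With TMM more genes were called in the direction of HSPA8 in all 4 conditions, in siControl 2694 against 1710. The HSPA8 and DNAJB1 calls held under TMM, the ERCC median ratio, the replicate block and without each library of the condition in turn.

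**Figure D3:**
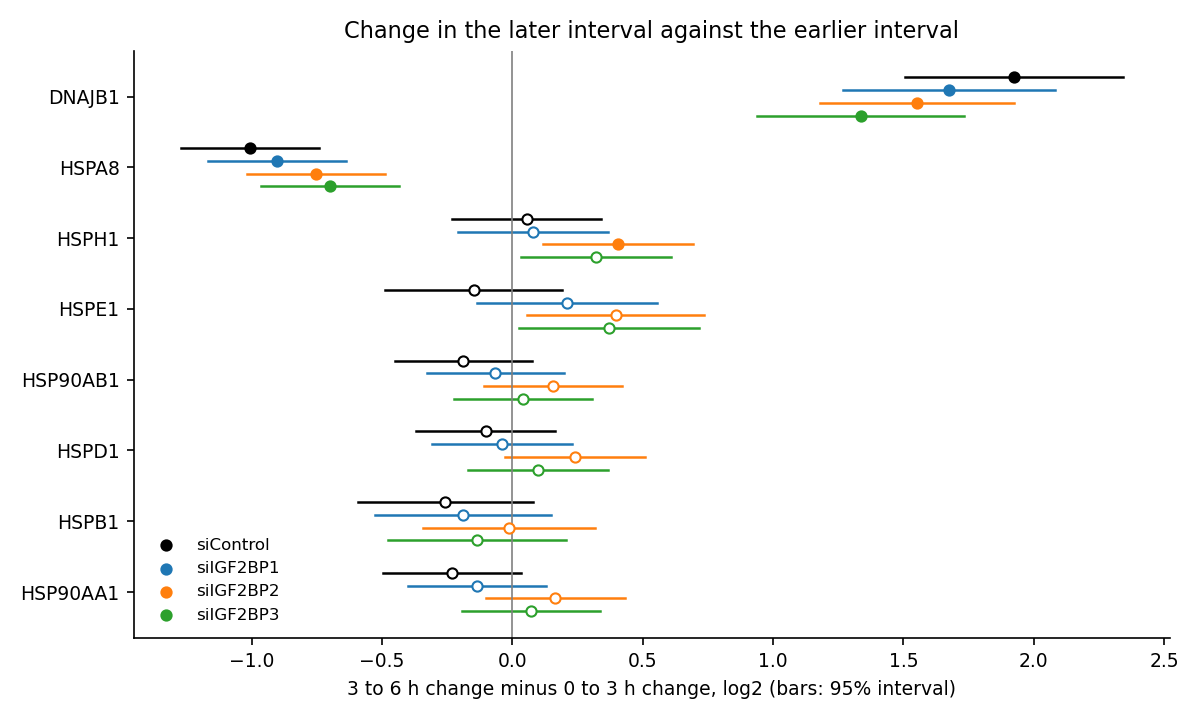
Change from 3 to 6 h minus change from 0 to 3 h on the log2 scale (ERCC scaling) for the 8 tested members, coloured by siRNA, with bars for the 95% interval and filled points for adjusted p under 0.05. HSPA8 lies between -1.01 and -0.70 and DNAJB1 between 1.34 and 1.92 in the 4 conditions.

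The 3′ untranslated regions were read for the pentamer ATTTA, the core of AU-rich elements, because such elements are known to speed mRNA decay. In canonical transcripts of the GENCODE v44 annotation, 67.7% of 19481 such regions held at least 1, with a median of 1.511 per kilobase. DNAJB1, which decayed fastest, had 0 in 1171 bases. HSPA8 had 2 in 245 bases, HSPH1 9 in 2345, HSPD1 1 in 462 and HSPB1 1 in 119, and HSP90AB1 and HSPE1 had 0. The untested HSPA1A had 1 in 260 bases and HSPA1B 2 in 378. The nonamer TTATTTATT, in 8.47% of all regions, was in none of these members. HSPH1 fell in siControl, but its slope of -0.77 was flatter than the median of all genes (-0.88). The windows below hold the pentamer in capitals, on the transcript's strand of hg38. They are from HSPA8 and HSPH1, which fell over 6 h in siControl, and HSPD1 and HSPB1, which were not called.
HSPA8, chr11:123057683-123057712, minus strand: cattgttccacacATTTAaaacatttgaag
HSPH1, chr13:31137209-31137238, minus strand: tATTTAtattttcttttttaaggatATTTA
HSPD1, chr2:197486829-197486858, minus strand: atgcctacagataATTTAttttgtattttt
HSPB1, chr7:76304237-76304266, plus strand: gttcttttgatacATTTAtcttctgttttt
Among the members given, the word was present in some that fell and in some that were not called, and absent from the member with the steepest slope.

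Half-lives were calculated as ln 2 over the mean of the decay rates from 0 to 3 h and from 0 to 6 h. In siControl DNAJB1 had a half-life of 0.910 h, with a shorter one in 0.71% of all tested genes, and HSPA8 one of 3.23 h. HSPH1 at 7.49 h and HSPE1 at 16.99 h lay above the median of 5.88 h over the 11910 genes with a half-life. That median leaves out 1226 tested genes without one. Leaving out 1 of the 6 siControl libraries at a time, these ranged from 0.892 to 0.929 h for DNAJB1, 3.01 to 3.50 h for HSPA8, 6.50 to 8.94 h for HSPH1, and 11.4 to 36.4 h for HSPE1, so the last value is hardly determined. HSP90AB1, HSPD1 and HSPB1 gave 52.1, 51.5 and 96.5 h, which a 6 h series cannot fix, and HSP90AA1 gave none because its mean rate was not above 0. The log-linear slope, which averages over the unequal intervals, gave 1.03 h for DNAJB1 (95% interval 0.895 to 1.23) and 2.54 h for HSPA8 (2.09 to 3.25). Under TMM, which follows the rest of the mRNA and not the ERCC reads, HSPA8 came to 6.30 h and DNAJB1 to 1.05 h.

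Under knockdown the order of the half-lives was the same for the 4 members that fell in every condition. For siIGF2BP1, siIGF2BP2 and siIGF2BP3 in turn, DNAJB1 was at 0.996 h (0.952 to 1.036 without 1 library at a time), 1.055 h (1.023 to 1.082) and 1.063 h (1.033 to 1.093), against 0.910 h in siControl. HSPA8 was at 3.635 h (3.498 to 3.776), 2.92 h (2.86 to 2.97) and 3.15 h (2.999 to 3.305), against 3.23 h. HSPH1 was at 8.31, 7.15 and 7.97 h against 7.49 h, and HSPE1 at 13.8, 10.7 and 11.9 h against 16.99 h. Half-lives from the fitted slope went the other way for HSPE1, at 18.23, 16.45 and 18.5 h against 14.13 h. They also did so for HSPH1 in siIGF2BP2 (9.425 against 7.763 h) and HSPA8 in siIGF2BP3 (2.661 against 2.543 h). All of these are given as values, and the change was tested on the fitted slopes. The medians over the genes with a half-life were 6.51, 6.21 and 6.61 h in the knockdowns.

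The same members fell over 6 h in each knockdown. DNAJB1, HSPA8, HSPH1 and HSPE1 were called in siIGF2BP1, siIGF2BP2 and siIGF2BP3, 4 of 8 each, where 69.1%, 71.3% and 67.2% of all genes fell. HSP90AB1 was not called in the knockdowns, with slopes of -0.01, -0.01 and 0.06. The slopes of HSPA8 were -2.10, -2.43 and -2.26, and those of HSPH1 -0.68, -0.64 and -0.59.

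**Figure D4:**
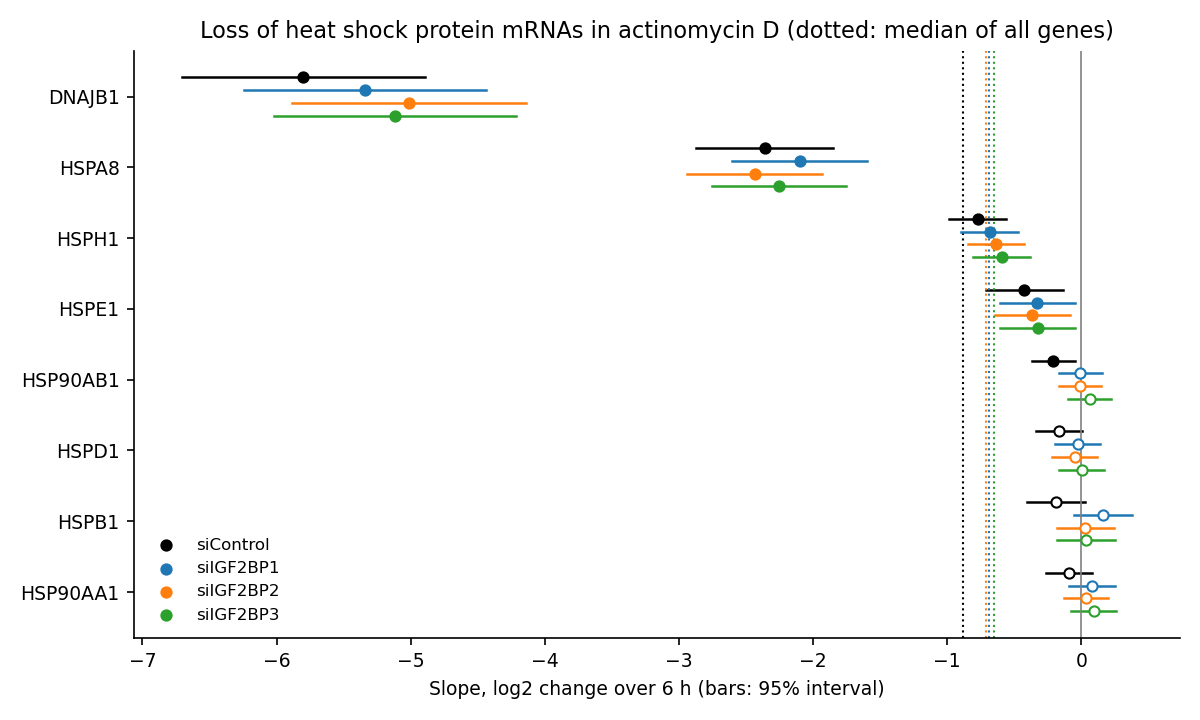
Fitted slope in log2 units over 6 h of actinomycin D (ERCC scaling) for the 8 tested members, coloured by siRNA, with bars for the 95% interval, filled points for adjusted p under 0.05 and dotted lines at the median of all genes. DNAJB1 lies between -5.80 and -5.01, HSPA8 between -2.43 and -2.10, and the other 6 members at or above -0.77.

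Whether knockdown of an IGF2BP altered the loss of heat shock protein mRNAs was tested as the difference in slope from siControl, whose libraries all 3 comparisons share. No member was called in siIGF2BP1, siIGF2BP2 or siIGF2BP3, where 0.0152%, 0% and 0.0228% of genes were. Before adjustment 1436, 896 and 2113 genes had a p under 0.05, among them HSPB1 in siIGF2BP1 (0.35, 95% interval 0.04 to 0.66) and HSP90AB1 in siIGF2BP3 (0.27, 95% interval 0.05 to 0.50). The differences over all genes were shifted, with medians of 0.19, 0.17 and 0.22, and the members' medians were 0.19, 0.13 and 0.18. HSPA8 differed by 0.26 (95% interval -0.45 to 0.96), -0.07 (-0.78 to 0.63) and 0.10 (-0.60 to 0.81). These intervals leave room for a change of HSPA8 decay in either direction. A straight line describes HSPA8 poorly, as the interval contrast shows, so their width includes this misfit and not replicate spread alone. In siIGF2BP1 the HSPA8 slope difference had an SE of 0.34. The difference in the 0 to 3 h change, from group means, had an SE of 0.11.

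DNAJB1 was the member with the largest slope differences, at 0.46, 0.79 and 0.68, and the widest intervals, from -0.78 to 1.70, -0.41 to 1.995 and -0.56 to 1.93. A straight line describes its early loss poorly, as the interval contrast shows. From the change between 0 and 6 h alone, DNAJB1 was retained more in siIGF2BP2 (0.73, SE 0.17, adjusted p = 0.0072) and in siIGF2BP3 (0.65, SE 0.18, adjusted p = 0.0321). These calls changed with the model, since the DESeq2 slope fit called no member and gave DNAJB1 0.73 and 0.65 (adjusted p = 0.752 and 0.477).

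The 0 to 3 h change was compared between conditions as an addition made after these values were seen. DNAJB1 at 3 h was at 7.71% and 6.88% of its 0 h mean in siControl, 10.9% and 7.64% in siIGF2BP1, 10.6% and 10.8% in siIGF2BP2, and 10.1% and 12.5% in siIGF2BP3. All libraries of siIGF2BP2 and siIGF2BP3 were above both siControl libraries, while siIGF2BP1 overlapped siControl. The difference from siControl was 0.62 in siIGF2BP3 (SE 0.15, adjusted p = 0.0381), 0.55 in siIGF2BP2 (SE 0.14, adjusted p = 0.19) and 0.35 in siIGF2BP1 (SE 0.15, adjusted p = 1). Of all genes 0.0609%, 0.0457% and 0.0761% were called in siIGF2BP1, siIGF2BP2 and siIGF2BP3, with 452, 299 and 519 at an unadjusted p under 0.05, and of the members DNAJB1 in siIGF2BP3 alone. That call was lost with TMM (0.55, adjusted p = 0.0872) and the ERCC median ratio (0.58, adjusted p = 0.223). It was also lost without siControl 0 h replicate 1, siControl 3 h replicate 1 or 2, siIGF2BP3 0 h replicate 1 or 2, or siIGF2BP3 3 h replicate 2, with values from 0.47 to 0.70 and adjusted p from 0.0719 to 0.93. The siIGF2BP2 difference passed with TMM (0.60, adjusted p = 0.027) and without siControl 0 h replicate 2 (0.64, adjusted p = 0.021). The other members differed by -0.24 to 0.14 and none was called.

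Before actinomycin D, knockdown changed the levels of a few members by small amounts. HSPB1 was the clearest, rising in siIGF2BP2 to 37.3 and 35.9 CPM from 27.7 and 26.9 CPM in siControl, a log2 change of 0.42 (SE 0.06, adjusted p = 2.33e-06, TMM scaling). It was at 29.8 and 28.0 CPM in siIGF2BP1 and at 26.7 and 27.1 CPM in siIGF2BP3 and was not called in either. The siIGF2BP2 libraries did not overlap any of the others, and the call held with DESeq2, with ERCC scaling (0.51, adjusted p = 2.8e-05) and without each library in turn. HSP90AA1, the inducible HSP90, was at 3188 and 3248 CPM in siControl, 3668 and 3550 in siIGF2BP1, 3374 and 3403 in siIGF2BP2, and 3463 and 3596 in siIGF2BP3. It rose in siIGF2BP1 (0.18, SE 0.03, adjusted p = 8.13e-06) and in siIGF2BP3 (0.13, SE 0.03, adjusted p = 0.00142).

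DNAJB1 was at 88.8 and 89.7 CPM in siControl, 102 and 100.1 in siIGF2BP1, 107 and 104 in siIGF2BP2, and 101 and 96.4 in siIGF2BP3, with both libraries of every knockdown above siControl. It rose in siIGF2BP1 (0.20, SE 0.07, adjusted p = 0.0457) and siIGF2BP2 (0.23, SE 0.07, adjusted p = 0.024) and was not called in siIGF2BP3 (0.14, adjusted p = 0.232). Both DNAJB1 calls were lost without any 1 of the 4 libraries compared, with changes of 0.18 to 0.22 in siIGF2BP1 and 0.21 to 0.25 in siIGF2BP2. HSPA8 fell in siIGF2BP1, from 2749 and 2765 to 2566 and 2481 CPM (-0.11, SE 0.04, adjusted p = 0.0295), a call that was lost without siControl replicate 1 (adjusted p = 0.0717) or 2 (0.202) or siIGF2BP1 replicate 2 (0.288). The HSP90AA1 call in siIGF2BP3 was lost without siControl replicate 1 (adjusted p = 0.0749) or siIGF2BP3 replicate 2 (0.121). HSP90AB1, HSPH1, HSPE1 and HSPD1 moved by -0.04 to 0.09 and were not called.

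These make 3 of 8 members in siIGF2BP1, 2 of 8 in siIGF2BP2 and 1 of 8 in siIGF2BP3, where 15.6%, 11% and 8.98% of all genes were called. With ERCC scaling at 0 h none of the siIGF2BP1 and siIGF2BP3 calls passed. Replicates of siControl at 0 h stood apart on that scale, replicate 1 at 106% to 108% and replicate 2 at 91.7% to 94.3% of their mean over the 8 tested members.

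**Figure D5:**
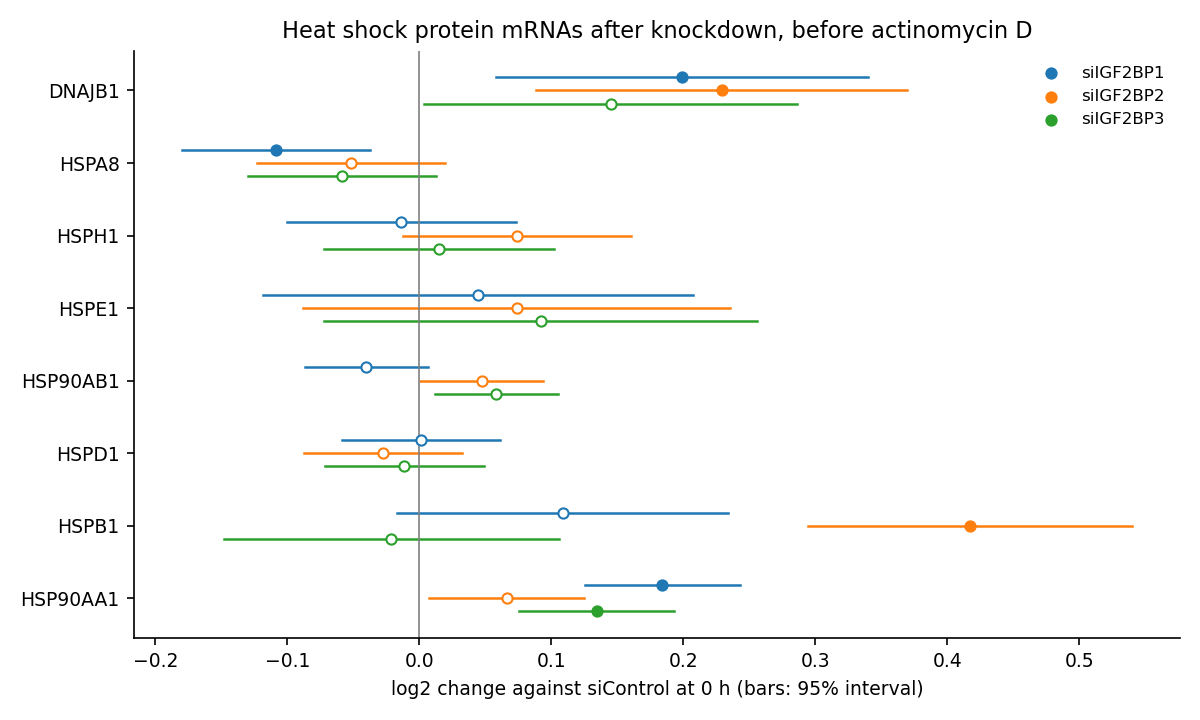
log2 change against siControl at 0 h (TMM scaling) for the 8 tested members in the 3 knockdowns, with bars for the 95% interval and filled points for adjusted p under 0.05. HSPB1 in siIGF2BP2 is at 0.42, and the other called values lie between -0.11 and 0.23.

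The rest of the chaperone network was read from 8 lists of 68 genes, of which 62 were tested. In siControl 51 of the 62 fell over 6 h (median slope -0.53), a share near the 80.3% of all genes. The 9 tested J-domain proteins, the class of DNAJB1, all fell, with a median of -1.40. The 8 subunits of CCT, the cytosolic chaperonin for actin and tubulin, all fell with a median of -0.40, and 5 of 8 chaperones of the endoplasmic reticulum fell, with a median of -0.19. Co-chaperones of HSP70 (11 of 12, median -0.64) and of HSP90 (9 of 10, median -0.62) lay nearer the median of all genes. Of 6 mitochondrial chaperones 4 fell (median -0.45), of the 5 tested other HSP70 and small HSP genes 4 (median -0.65), and of the 4 heat shock factors and regulators 1 (median -0.09).

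HSF2, a heat shock transcription factor, had the steepest slope of the lists in siControl (-3.81, SE 0.39, adjusted p = 8.13e-09), followed by GRPEL2, a nucleotide exchange factor of mitochondrial HSP70 (-3.73, SE 0.42, adjusted p = 3.57e-08). The flattest were HSBP1, a binding partner of HSF1 (0.02, SE 0.08), and PDIA4, a disulfide isomerase (0.01, SE 0.08). None of the 62 genes was called for a slope difference in any knockdown. HSPA6, another strictly inducible HSP70 gene, was at 0.00673 ± 0.00952 CPM in siControl at 0 h and did not pass the filter for testing, nor did HSPA1L, HSPA2, HSPB6, HSPB8 and the J-domain gene DNAJA4.

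At 0 h the lists held 10 genes that rose and 2 that fell in siIGF2BP1, 1 and 7 in siIGF2BP2, and 2 and 5 in siIGF2BP3, where 15.6%, 11% and 8.98% of all genes were called. ST13, the HSP70 co-chaperone Hip, rose in all 3, by 0.50, 0.51 and 0.48 (adjusted p = 2.93e-15, 9.45e-16 and 1.27e-14), larger than any called change among the 10 members. Of the 8 chaperones of the endoplasmic reticulum, 6 fell in siIGF2BP2 and 4 in siIGF2BP3, with list medians of -0.13 and -0.11 against about 0 for all genes, of which 792 and 596 of 13136 fell. Among them DNAJB9, a J-domain partner of HSPA5, fell in siIGF2BP2 (-0.58, SE 0.11, adjusted p = 0.000123), and SERPINH1, the collagen chaperone HSP47, fell in siIGF2BP1 (-0.28, SE 0.05, adjusted p = 2.38e-05) and siIGF2BP3 (-0.24, SE 0.05, adjusted p = 0.00043). The lists at 0 h were read with TMM alone. With ERCC scaling the median of all genes moved to 0.098 in siIGF2BP2 and 0.086 in siIGF2BP3, and the lists were not recomputed on that scale.

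Over the 12 group means of log2 ERCC-scaled level and the 9745 genes whose mean was 5 CPM or more, the genes closest to DNAJB1 were KANK1 (Pearson r = 0.9991), ASXL2 (r = 0.9985) and WDR33 (r = 0.9984). The 12 points share the ERCC scale and mostly reflect the 3 time points, so these are given as a description. HSPA1A was too low for such a comparison.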

How the data were processed

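RNA lifetime sequencing was done by the authors on HepG2 cells in actinomycin D. According to the methods and per the labels, ERCC RNA was added in proportion to total RNA, polyadenylated RNA was made into stranded libraries and read as single ends, and reads were trimmed (Trimmomatic 0.39), aligned to hg38 (HISAT2 2.1.0) and assigned to GENCODE genes by HTSeq. What the authors deposited are raw read counts of 58721 gene, 92 ERCC and 5 summary rows per library. Summary rows, 13.551% to 17.064% of each total, and 45 Y-copy rows were left out. ERCC RNA was added to purified RNA and does not correct for cell number or RNA recovery, and intervals cover these libraries only.

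Here edgeR 4.0.16 (R 4.3.3) quasi-likelihood tests were run on the 13136 genes that reached 1 CPM in 2 or more libraries, with p-values adjusted by Benjamini-Hochberg over them and a threshold of 0.05. All 24 libraries entered each fit. Levels at 0 h used TMM and 12 group means, slopes used ERCC sums and 1 line per condition, and intervals used ERCC sums and group means. DESeq2 1.42.0, other scalings, filters, a replicate block and leaving out each library were the alternatives. The script was tested on simulated data. The members and the chaperone lists were chosen with earlier results of these data known. Beyond the 10 members, genes were named by rule: for each knockdown the 2 largest called changes at 0 h, the 2 steepest and 2 flattest slopes in siControl, all called slope differences (mean CPM of at least 5 for each), and the 3 most correlated with DNAJB1. HSPA6 and the other genes under the filter were named after their values were seen. Positions are from GENCODE v44 on GRCh38. The 3′ untranslated region of 1 member is not reported here.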

Additional observations from a re-analysis of the deposited data

Results flagged for a closer look

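The loss of DNAJB1 mRNA from 0 to 3 h differed between siIGF2BP3 and siControl by 0.6182 on the log2 scale in a direct test of the difference (edgeR quasi-likelihood test, adjusted p = 0.0381), with more DNAJB1 retained in both siIGF2BP3 libraries than in either siControl library. This test was added after the values were seen. The median difference of all genes in the same contrast was 0.06, and 96.22% of genes lay lower than DNAJB1. The call was lost with TMM (adjusted p = 0.0872), with the ERCC median ratio (0.223) and in 6 of the 8 fits that left out 1 library (up to 0.93).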

How the results depend on the processing

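Results for the members were recomputed with other scalings, filters, tools and sample choices, 1 at a time. Those of the chaperone lists and of the genes correlated with DNAJB1 were not. Beyond half-lives and counts, DESeq2 kept 43 of 44 single-gene results in direction and call, the ERCC median ratio 71 of 74, and leaving out 1 library 419 of 468, the last with 44 calls lost, 5 gained and 0 reversed. ERCC scaling at 0 h kept 6 of 10, TMM 22 of 74 with 28 reversed, and library size scaling 14 of 34 with 12 reversed. The comparisons at 0 to 3 h between conditions, the contrast of the intervals and the canonical lengths were added after the data were seen. With 2 libraries a group the calls of slopes near 0 changed with a single left-out library, and at their counts HSPA1A and HSPA1B could not be tested.

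At 0 h, ERCC scaling left 0 members called in siIGF2BP1 and 0 in siIGF2BP3. The 4 libraries compared, fitted alone, gave 4 in siIGF2BP2 and 2 in siIGF2BP3, and DESeq2 size factors gave 2 in siIGF2BP3. Of all genes in the fit of 4 libraries for siIGF2BP2, 1049 rose and 1307 fell of 12689. Slope differences numbered 1 in siIGF2BP2 with no filter, and 1 in siIGF2BP2 and 1 in siIGF2BP3 from the 0 h to 6 h change alone, which called 70 genes higher and 2 lower in siIGF2BP2 and 194 and 1 in siIGF2BP3. The call of a 0 to 3 h difference in siIGF2BP3 went to 0 with TMM and 0 with the ERCC median ratio, and siIGF2BP2 went to 1 with TMM. Under TMM 7 members changed from 0 to 3 h in siControl, the intervals differed for 6, 6, 5 and 4 members (siControl, siIGF2BP1, siIGF2BP2, siIGF2BP3), and 2, 2, 2 and 2 fell over 6 h, with 3 in siControl by library size. Over all genes TMM called 4667 higher and 4410 lower from 0 to 3 h, and 1710 higher and 2694 lower between the intervals in siControl. The siControl half-life of DNAJB1 was 1.054 h with TMM, 0.9092 h with the ERCC median ratio and 1.034 h from the slope, and that of HSPA8 6.299 h with TMM and 2.543 h from the slope.

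TMM and library size scaling remove the common loss of mRNA, and the flat members turned positive. From 0 to 3 h in siControl TMM gave 0.4580 for HSP90AB1, 0.4371 for HSPD1, 0.3310 for HSPE1 and 0.0533 for HSPH1. From 3 to 6 h it gave 0.2431 for HSP90AA1, 0.2074 for HSP90AB1, 0.1832 for HSPB1, 0.2726 for HSPD1, 0.1222 for HSPE1 and 0.0474 for HSPH1. Slopes in siControl with TMM and library size were 0.7795 and 0.4550 for HSP90AA1, 0.6654 and 0.3407 for HSP90AB1, 0.6836 and 0.3589 for HSPB1, 0.7097 and 0.3851 for HSPD1, 0.4540 and 0.1294 for HSPE1, and 0.1010 with TMM for HSPH1. In siIGF2BP1 they were 0.6615 and 0.3628 for HSP90AB1, 0.6416 and 0.3429 for HSPD1, and 0.3416 and 0.0427 for HSPE1. In siIGF2BP2 they were 0.6749 and 0.3868 for HSP90AB1, 0.6356 and 0.3474 for HSPD1, 0.3178 and 0.0294 for HSPE1, and 0.0459 with TMM for HSPH1. In siIGF2BP3 they were 0.3252 and 0.0331 for HSPE1, and 0.0527 with TMM for HSPH1. The difference between the intervals turned to -0.1766 for HSP90AA1 and -0.1833 for HSP90AB1 in siIGF2BP2 and to -0.1215 for HSP90AB1 in siIGF2BP3 with TMM.

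Leaving out each replicate in turn gave at 0 h 1 to 2 members called in siIGF2BP1, 1 to 1 in siIGF2BP2 and 0 to 1 in siIGF2BP3, and 0 to 0, 0 to 1 and 0 to 1 for the 0 to 3 h difference. In siControl 3 to 4 members changed from 0 to 3 h and 4 to 5 from 3 to 6 h, the last below the 6 of all libraries. Over 6 h 3 to 8 fell in siControl (3 without siControl 0 h replicate 1, 8 without its replicate 2) and 3 to 4 in each knockdown. The intervals differed for 2 to 2, 2 to 2, 2 to 5 and 2 to 3 members (5 without siIGF2BP2 6 h replicate 1). Slope differences numbered 0 to 0, 0 to 0 and 0 to 1, the 1 being HSP90AB1 in siIGF2BP3 without siControl 0 h replicate 2. The siControl half-lives ranged from 0.8921 to 0.9291 h for DNAJB1, 3.013 to 3.498 h for HSPA8, 6.502 to 8.937 h for HSPH1 and 11.4 to 36.4 h for HSPE1.

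Whether the replicate numbers pair the samples could not be settled. By the methods, each transfected plate was reseeded into smaller plates, so the time points of 1 replicate may share a plate. Deviations of same-numbered libraries correlated by -0.023 to -0.018 between conditions at 0 h. Within a condition they correlated by -0.012 to 0.142, with the highest values in siIGF2BP3 (0.095 to 0.142). With 2 libraries a group, such values cannot exclude a shared plate. With the number as a replicate block all 84 single-gene results kept their direction and call, and the counts of members stayed at 3, 2 and 1 at 0 h, 5, 4, 4 and 4 that fell, and 0, 0 and 0 slope differences.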
